A study of Mus musculus with 8 samples.

Results

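Krt1, Krt10 and Flg encode keratin 1, keratin 10 and filaggrin, proteins that a keratinocyte makes once it leaves the basal layer of the epidermis. Each symbol stood alone in the platform annotation of exactly 1 probe set, which gave 3 genes of the 9294 genes measured in the series, and no further probe set listed any of them beside other symbols. The arrays held mouse keratinocytes of the C57BL/6 strain, all grown in regular medium and all transduced with v-rasHa, a viral activated form of Hras, 3 days before RNA was taken. The 4 KO RAS arrays held cells deficient in Nfkbiz, the gene of the nuclear NF-kB regulator IkBz, and the 4 WT RAS arrays held wildtype cells. The samples of a genotype are biological replicates per the labels, whose wording does not say whether they were separate mice or cultures, how the knockout was made or how old the animals were. Every group carried the oncogene, so no value shows these genes without v-rasHa. Nfkbiz and Hras were not analysed here, so the genotype and the oncogene rest on the labels.

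Keratin 1, a type II keratin, pairs with keratin 10, a type I keratin, and the pair takes the place of keratins 5 and 14 when a basal cell becomes a spinous cell. Filaggrin is made later, in the granular layer, as the long precursor profilaggrin, which is cut by proteases into units that bundle keratin filaments and are then broken down to amino acids that hold water in the cornified layer. The keratin pair is the classical early sign of epidermal differentiation in mouse keratinocyte cultures, and an active ras oncogene in such cultures is known to lower it. The comparison asks which transcripts of v-rasHa keratinocytes depend on IkBz.

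The median log2 signal of an array was 4.49 to 4.57 and the lower quartile 3.33 to 3.39. Below, rose, fell and called refer to an adjusted p below 0.05 in limma, with Benjamini-Hochberg adjustment over all 9294 genes, and a difference is KO RAS minus WT RAS on the log2 scale. This rule called 415 genes higher and 412 lower in KO RAS cells, and 482 higher and 314 lower where each array was first centred on its median. The basal keratin gene Krt5 had a log2 signal of 13.29 ± 0.06 in KO RAS and 13.42 ± 0.03 in WT RAS arrays (SD, n = 4 each), close to the highest value on any array, 13.9, so the defining keratin of basal keratinocytes was strongly detected in every array. Of 9 measured fibroblast markers 7 fell and 1 rose, and their summed linear signal was 649 to 736 in KO RAS and 975 to 1057 in WT RAS arrays, with 1 of them below the array medians throughout. The 3 melanocyte markers summed to 2183 to 2689 in KO RAS and 2816 to 2947 in WT RAS arrays, with none below the array medians. The 12 leukocyte markers summed to 298 to 314 in KO RAS and 320 to 352 in WT RAS arrays, with 4 below the array medians, and the 6 endothelial markers to 101 to 119 in KO RAS and 115 to 120 in WT RAS arrays, with 3 below. The part of these cells in the results below was not tested, and in bulk RNA fewer cells of a type and less RNA per cell cannot be told apart.

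None of the 3 genes was called, in a comparison that called 8.9% of all genes, 4.47% as higher and 4.43% as lower in KO RAS cells. For all 3 the KO RAS and WT RAS values overlapped, where 15.9% of all genes had values that did not. Krt1 was at the same mean in both genotypes, while Krt10 and Flg had higher means in KO RAS cells by amounts within the spread of the arrays. Krt1 had log2 signals of 6.30, 6.65, 6.72 and 6.77 in KO RAS arrays 1 to 4, against 6.48, 6.67, 6.63 and 6.66 in WT RAS arrays 1 to 4. The highest and the lowest of these 8 values were both in KO RAS arrays, and the WT RAS values lay between them. The difference was 0.00 ± 0.10 (SE; limma adjusted p = 0.996), with a 95% interval of 0.865 to 1.16 for the fold of KO RAS over WT RAS.

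Krt10 had log2 signals of 6.61, 6.87, 6.97 and 6.77 in KO RAS arrays, against 6.73, 6.64, 6.75 and 6.61 in WT RAS arrays. In KO RAS cells 3 of 4 values lay above every WT RAS value, the smallest of them narrowly, and KO RAS array 1 lay level with the lowest WT RAS value. The difference was 0.12 ± 0.08 (SE; limma adjusted p = 0.419), with a 95% interval of 0.967 to 1.22 for the fold. The probe set of Krt10 carries the suffix _a_at, which marks probes shared by several transcripts of 1 gene, so its transcript forms are not told apart.

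Flg had log2 signals of 9.23, 9.86, 9.55 and 9.77 in KO RAS arrays, against 9.25, 9.37, 9.51 and 9.19 in WT RAS arrays. Again 3 KO RAS values lay above every WT RAS value and KO RAS array 1 lay among the WT RAS values, so the groups overlapped. The difference was 0.27 ± 0.13 (SE; limma adjusted p = 0.252), with a 95% interval of 0.996 to 1.46 for the fold. Without KO RAS replicate 1, the difference of Flg was 0.40 ± 0.10 and passed the test (limma adjusted p = 0.034), so the call of Flg turns on 1 array. In the same setting the differences of Krt1 and Krt10 were 0.10 and 0.19, with limma adjusted p of 0.453 and 0.161.

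**Figure D1:**
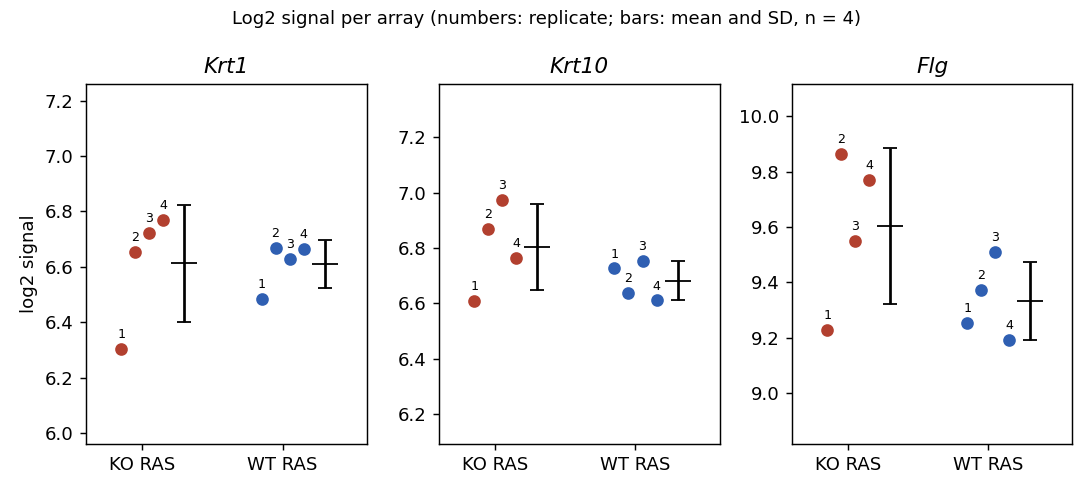
Log2 signal (vertical axis) of Krt1, Krt10 and Flg in the 4 KO RAS arrays (left in each panel) and the 4 WT RAS arrays (right); each point is 1 array with its replicate number, and the bars give mean and SD (n = 4). KO RAS array 1 is the lowest of its group in all 3 panels, at 6.30, 6.61 and 9.23, and the genotypes overlap in each panel.

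The 3 genes varied more between arrays of 1 genotype than most genes did. The standard deviation within genotypes was 0.16 for Krt1, 0.12 for Krt10 and 0.22 for Flg, which was larger than that of 88.1%, 65.2% and 98.2% of all genes. In KO RAS arrays the SD was 0.21 for Krt1, 0.16 for Krt10 and 0.28 for Flg, against 0.09, 0.07 and 0.14 in WT RAS arrays. KO RAS array 1 was the lowest of its group for all 3 genes, and the same array was the lowest for 63 of the 76 measured genes of the spinous layer, fused-type S100, profilaggrin processing and cornified envelope lists, where it was the lowest for 24.2% of all genes. WT RAS array 1 was the lowest of its group for 54 of these 76 genes, where it was the lowest for 25.3% of all genes, and for Krt1 but not for Krt10 or Flg. Array 1 of each genotype was thus low across differentiation genes, and what else set these arrays apart was not tested.

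Among genes expressed with the keratin pair in spinous and upper layers, called genes were mostly lower in KO RAS cells. The spinous layer list had 18 measured genes, of which 6 fell, 1 rose and 11 were uncalled by limma, a share of 38.9% called where 8.9% of all genes were. Its median difference was -0.11, where the median of all genes was -0.012. The desmosomal cadherin genes Dsg1b and Dsg1a, which join suprabasal cells, fell by 0.58 ± 0.15 and 0.47 ± 0.12 (SE; limma adjusted p = 0.0374 and 0.0300). Krtdap, which encodes a small secreted protein of differentiating keratinocytes, fell to 12.05 ± 0.21 in KO RAS, against 12.50 ± 0.12 in WT RAS arrays (SD, n = 4 each; limma adjusted p = 0.0157). The keratin genes Krt78 and Krt80 fell by 0.30 and 0.21, and Ly6d, the gene of a membrane-anchored surface protein, fell by 0.29. The tight junction gene Cldn4, named after its values were seen, rose by 0.20. The uncalled members with the highest means were the galectin gene Lgals7 with a difference of -0.08, the desmosome gene Perp with -0.04 and the dermokine gene Dmkn with -0.21 (limma adjusted p = 0.531, 0.757 and 0.0685). In place of 7, only 2 members of this list were called without WT RAS replicate 2, 3 without KO RAS replicate 1, 3 or 4 or WT RAS replicate 3, and 4 without WT RAS replicate 1 or 4. Krt80 lost its call in 7 of the 8 settings that left out 1 array, and Dsg1b, Dsg1a and Krt78 each in 5. Krtdap and Ly6d lost theirs in none of these. In the 8 other settings Krt80 lost its call in 4, Dsg1b in 2 and Krtdap in 1.

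Filaggrin belongs to the fused-type S100 proteins, and none of its 3 measured relatives was called, where 8.9% of all genes were. Hrnr, the hornerin gene, had a difference of -0.16 ± 0.09 (SE; limma adjusted p = 0.381) at log2 signals of 4.29 in KO RAS and 4.45 in WT RAS arrays, below the array medians. Tchh, the gene of trichohyalin in hair follicles, had 0.19 ± 0.09, and Tchhl1 had -0.02 ± 0.13 (limma adjusted p = 0.251 and 0.971). Read in the order of genes along the chromosome in a reference table, Flg stood between Lce1m and Hrnr among the measured genes, and the run from Lce1m to the calpactin gene S100a10, which holds Flg, Hrnr, Tchh and Tchhl1, had no called member. With 8.9% of all genes called, a short run without a call is not a result about this stretch. The nearest 5 measured genes on the other side of Lce1m all fell: Crct1 by 0.43, Lce3f by 1.00, Lce3c by 0.79, Lce3b by 0.82 and Lce3a by 1.21. Of all genes, 4.43% fell. This order was read after the values were seen, and the family members Lce3a to Lce3f may share probe targets.

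The enzymes and inhibitors that act on profilaggrin and on the shedding of the cornified layer split in direction. Among 20 measured genes of this list 4 fell, 2 rose and 14 were uncalled by limma. The share called was 30%, where 8.9% of all genes were called. The median difference was -0.0087, close to that of all genes. Spink5, the gene of the kallikrein inhibitor LEKTI, fell to 9.68 ± 0.15 in KO RAS, against 10.18 ± 0.10 in WT RAS arrays (SD, n = 4 each; limma adjusted p = 0.00251). The serine protease genes Tmprss13, Klk7 and Klk6 fell by 0.33, 0.30 and 0.25. Padi1, whose product converts arginine to citrulline in filaggrin and keratins, rose by 0.49 ± 0.12, and the kallikrein gene Klk11 rose by 0.36 ± 0.08 (SE; limma adjusted p = 0.0277 and 0.0135). Asprv1, the gene of the aspartic protease that cuts profilaggrin, had a difference of -0.17 (limma adjusted p = 0.105), and the protease genes Ctsd and Klk8 had -0.09 and -0.11. Without WT RAS replicate 3, only 3 members were called in place of 6, and with trend and robust estimation in limma 11 were. Padi1 lost its call in 6 of the 8 settings that left out 1 array and Tmprss13 and Klk6 in 4 each, while Spink5, Klk7 and Klk11 kept theirs.

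The cornified envelope is the protein and lipid shell of the dead cell, built after the spinous stage, and its genes were called most often among these lists. Limma called 20 of 35 measured genes lower and none higher, a share of 57.1% called where 8.9% of all genes were. The median difference of this list was -0.29. Sprr2f and Sprr2d, which encode small proline-rich envelope precursors, had differences of -2.63 ± 0.23 and -2.41 ± 0.10 (SE). Sprr2i and Lce3a followed with -1.26 and -1.21, and the cysteine protease inhibitor genes Stfa3 and Csta1 with -1.18 and -1.02. Sprr1a, Sprr1b and the cystatin gene Cst6 did not pass, with differences of -0.12, -0.20 and -0.19 (limma adjusted p = 0.301, 0.195 and 0.346). The late cornified envelope genes divided by subfamily: all 4 measured Lce3 genes fell, with a median of -0.91, and of 9 measured Lce1 genes 3 fell and 6 did not pass, with a median of -0.14. In the same arrays the summed fibroblast markers were lower in KO RAS cells, as given above.

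**Figure D2:**
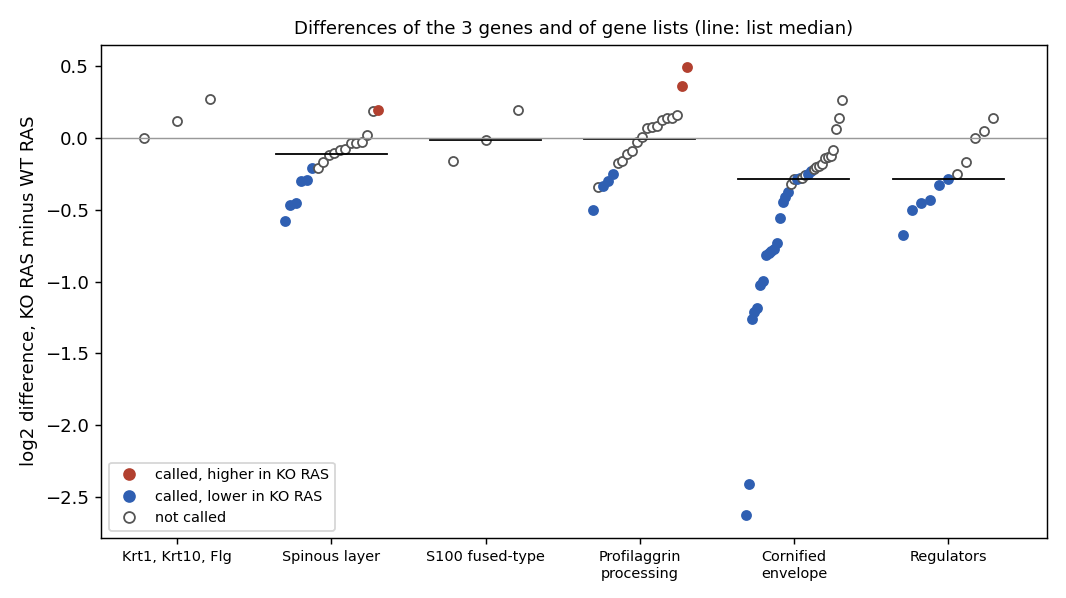
Log2 difference, KO RAS minus WT RAS (vertical axis), of Krt1, Krt10 and Flg and of each measured member of 5 gene lists; filled points were called by limma, open points were not, and the line is the list median. The 3 genes lie at 0.00, 0.12 and 0.27, while 20 of 35 cornified envelope genes and 6 of 11 regulators are called lower. Of all genes, 4.43% are called lower.

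The 3 genes were also compared within arrays with 1 gene from each of 4 lists, which does not stand for its whole list. For each list the measured gene with the highest mean was taken as comparator: Krt5 for basal keratins, Krt16 for stress keratins, Sprr1a for Sprr genes and Lce3c for Lce genes. The difference of Sprr1a was -0.12 beside a median of -0.42 over the 8 measured Sprr genes, and that of Lce3c was -0.79 beside a median of -0.25 over the 13 measured Lce genes. The difference between a gene and its comparator in the same array was compared between genotypes with a two-sided exact permutation test over the 12 pairs, where 4 against 4 arrays cannot give a p below 0.0286. All 12 differences were positive, which means that the gene was higher relative to its comparator in KO RAS cells. These signs follow from the single-gene values and add nothing to them, since each comparator had a negative difference and none of the 3 genes did. Krt1 itself had a difference of 0.00, so its pairs restate the differences of the comparators. In 7 pairs the KO RAS and WT RAS values did not overlap, so that the exact permutation test reached its smallest p of 0.0286, with an adjusted p of 0.0490. For Krt10 and Sprr1a this gap was narrow, with a lowest KO RAS value of 0.157 and a highest WT RAS value of 0.154 relative to the WT RAS mean.

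Against Lce3c, which itself fell by 0.79, the separation was wide for each of the 3 genes. Relative to the WT RAS mean, the within-array difference of Flg and Lce3c was 0.96, 1.19, 1.02 and 1.07 in KO RAS arrays 1 to 4, against 0.11, -0.019, -0.0053 and -0.085 in WT RAS arrays 1 to 4. The genotypes were thus about 1 log2 unit apart with little spread, and KO RAS array 1 did not stand out on this measure. The mean differences were 1.06 for Flg, 0.91 for Krt10 and 0.79 for Krt1, with an exact permutation adjusted p of 0.0490 each. Lce3c, and Krt16 below, had values that on their own did not overlap between genotypes. A gene without a change can separate from such a comparator, so these p-values do not show a change in the 3 genes. Against Krt16, a keratin of activated epidermis that itself fell by 0.27 (limma adjusted p = 0.0193), the differences of Flg and Krt10 were 0.54 and 0.39 and passed, while that of Krt1 was 0.27 with an exact permutation adjusted p of 0.0762.

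Against Sprr1a, Flg and Krt10 passed with 0.39 and 0.24, and Krt1 did not, with 0.12 (exact permutation adjusted p = 0.187). Against Krt5 none of the 3 passed: the differences were 0.13 for Krt1, 0.25 for Krt10 and 0.40 for Flg, with exact permutation adjusted p of 0.314, 0.0762 and 0.103. Krt5 and Sprr1a lie close to the highest signal of the arrays. The adjusted p lies just under 0.05 because 7 of 12 pairs reached the smallest p, and with 6 such pairs it would have been 0.0571. With 3 arrays left in a group the smallest exact p is 0.0571, and only the differences can be compared: leaving out each array in turn gave 1.02 to 1.10 for Flg against Lce3c and 0.74 to 0.83 for Krt1 against Lce3c.

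**Figure D3:**
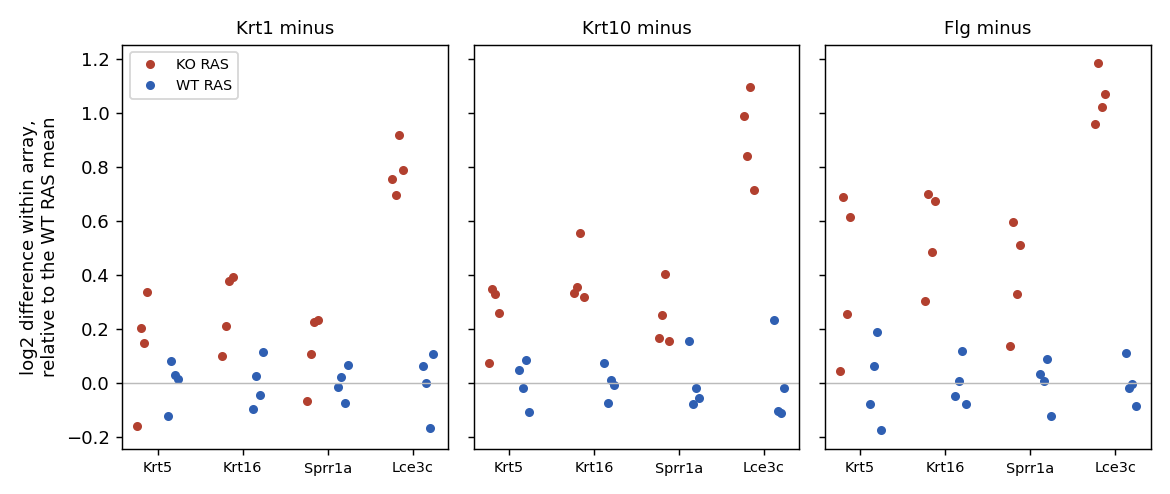
Within-array difference in log2 signal between Krt1, Krt10 or Flg (panels) and each comparator (horizontal axis), set to the mean of the WT RAS arrays; points are arrays, KO RAS left and WT RAS right of each position. Against Lce3c the KO RAS arrays lie clear of the WT RAS arrays in every panel (mean differences of 0.79, 0.91 and 1.06), and against Krt5 the genotypes overlap in every panel.

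Across the keratin family, Krt1 and Krt10 stood among the 28 of 39 measured genes that were not called. A total of 3 keratins rose and 8 fell, a share of 28.2% called, where 8.9% of all genes were called, 4.47% higher and 4.43% lower. Those that rose were the simple-epithelial keratins Krt7, Krt18 and Krt19, by 0.76, 0.68 and 0.54. Among those that fell, Krt6b of activated epidermis had a difference of -1.38, the hair follicle keratin Krt75 had -0.95, Krt23 had -0.80 and Krt84 had -0.40. Smaller decreases were those of Krt78 at -0.30, Krt16 at -0.27, Krt36 at -0.24 and Krt80 at -0.21. Krt36 and Krt80 each lost their call in 11 of 16 alternative settings, and Krt16 without KO RAS replicate 1 or WT RAS replicate 2 or 3. Krt36 had mean signals of 4.25 in KO RAS and 4.49 in WT RAS arrays, close to the array medians. Among the uncalled keratins, Krt5 had a difference of -0.13 and the basal and follicular keratin Krt15 had 0.11 ± 0.12 (SE; limma adjusted p = 0.167 and 0.678). The suprabasal type II keratins Krt2 and Krt77 had -0.03 and 0.19, with mean signals of 2.49 and 4.84 in KO RAS and 2.53 and 4.65 in WT RAS arrays, so Krt2 lay below the lower quartile of every array. Krt79, of the upper hair follicle, had 0.18 ± 0.08 (SE; limma adjusted p = 0.272). The other uncalled keratins, Krt20, Krt24, Krt25, Krt26, Krt27, Krt28, Krt31, Krt32, Krt33a, Krt33b, Krt34, Krt35, Krt71, Krt72, Krt73, Krt76, Krt81, Krt82, Krt83, Krt86 and Krt88, had differences between -0.19 and 0.19. Krt14 shares its probe set with Krt17 and was not analysed here.

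**Figure D4:**
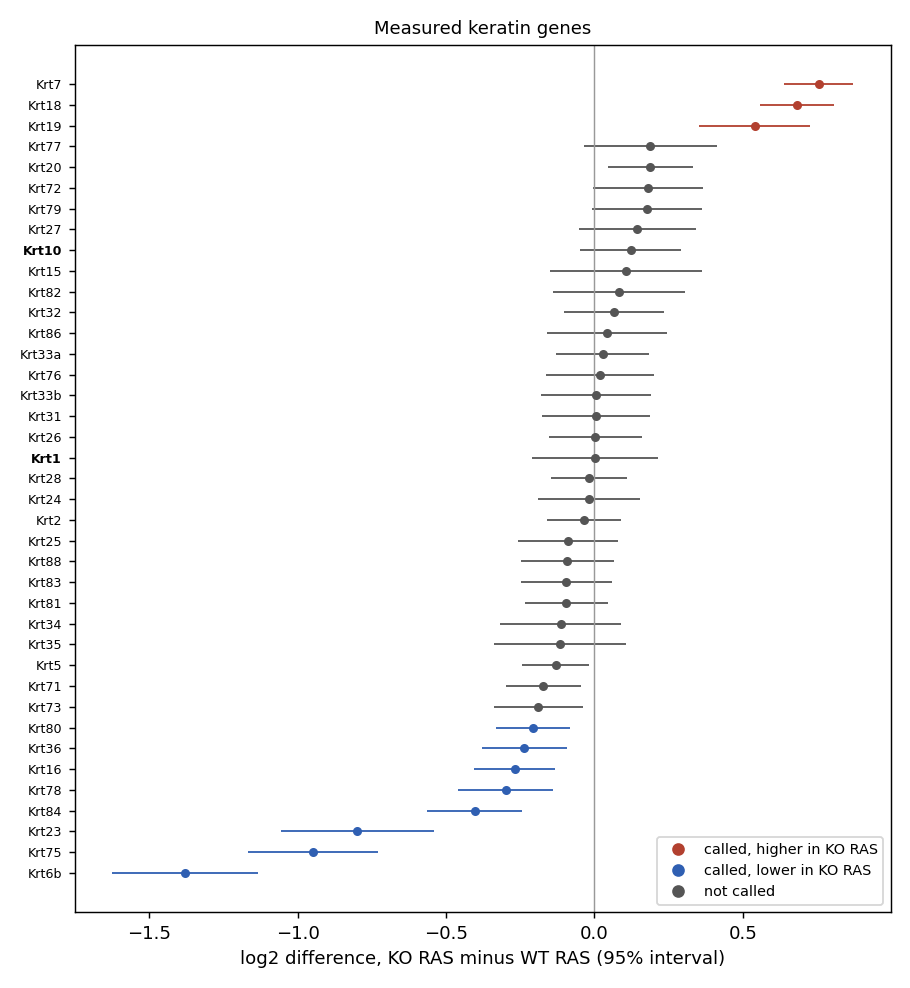
Log2 difference, KO RAS minus WT RAS (horizontal axis), of the 39 measured keratin genes with 95% intervals from limma; red marks genes called higher, blue genes called lower and grey genes not called. Krt1 and Krt10 (bold) lie at 0.00 and 0.12, between Krt7 at 0.76 and Krt6b at -1.38.

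The levels of the 3 genes over the 8 arrays were compared with those of other genes as a description. Values are Pearson's r over 8 arrays, which share their RNA and hybridisation, among genes with a mean log2 signal of at least 5 and an SD of at least 0.2. The genes most like Krt1 were Lce1b with r = 0.88, Lce1d with 0.87, the retinol dehydrogenase gene Rdh9 with 0.85 and Lce1a2 with 0.82, and the most opposite were Prrg4 with -0.77 and Sall2 with -0.66. The genes most like Flg were Lce1a2 with r = 0.89, the annexin gene Anxa9 with 0.88, Nxt2 with 0.87 and Klk11 with 0.86, and the most opposite were Cyba, which encodes a subunit of NADPH oxidases, with -0.82 and the tenascin gene Tnn with -0.81. The genes most like Krt10 were Gm94 with r = 0.81, Ano9 with 0.80, A630072M18Rik with 0.78 and Anxa9 with 0.77, and the most opposite were Rnf208 with -0.79 and the insulin receptor substrate gene Irs2 with -0.70. Anxa9, Klk11 and A630072M18Rik rose by 0.35, 0.36 and 0.39, Cyba, Tnn and Irs2 fell by 0.36, 0.46 and 0.36, and the other genes of these lists did not pass the limma test. Anxa9 lost its call in 6, Irs2 in 8 and A630072M18Rik in 1 of 16 alternative settings.

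Lce1a2 tracked Flg closely. It had log2 signals of 7.42, 8.12, 7.91 and 8.07 in KO RAS arrays, against 7.45, 7.84, 7.97 and 7.69 in WT RAS arrays, and array 1 was the lowest of both genotypes. Without KO RAS replicate 1, a setting chosen after seeing the data, r of Lce1a2 and Flg was 0.89 over 7 arrays, but that of Lce1d and Krt1 was 0.56 and that of Rdh9 and Krt1 was 0.55. The genes most opposite Krt1 moved further, to -0.34 for Prrg4 and -0.26 for Sall2. Among the 3 genes themselves, r was 0.49 for Krt1 and Krt10, 0.59 for Krt1 and Flg and 0.69 for Krt10 and Flg. With each value taken relative to its genotype mean these were 0.56, 0.72 and 0.57, and without KO RAS replicate 1 they were -0.47, 0.0085 and -0.086, so the shared variation of the 3 genes within a genotype rests on that array.

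The Lce3 genes followed Flg from array to array within a genotype although their means differed between genotypes. Relative to genotype means, r with Flg was 0.84 to 0.93 for the 4 Lce3 genes and 0.64 to 0.84 without KO RAS replicate 1. The median r with Flg was 0.83 over the 35 cornified envelope genes and 0.65 without that array, where the median over all genes was -0.037 and -0.041. For Krt1, r was 0.81 to 0.87 for the 4 Lce3 genes and 0.53 to 0.69 without that array. Its median over the cornified envelope genes was 0.81 with the array and 0.53 without it. WT RAS array 1, kept in that setting, was the lowest of its group for Krt1 and all 4 Lce3 genes. It was also the lowest for 28 of the 35 cornified envelope genes. How far the values of Krt1 rest on WT RAS array 1 was not tested. For Krt10 the median over the cornified envelope genes was 0.45 with KO RAS replicate 1 and -0.22 without it.

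**Figure D5:**
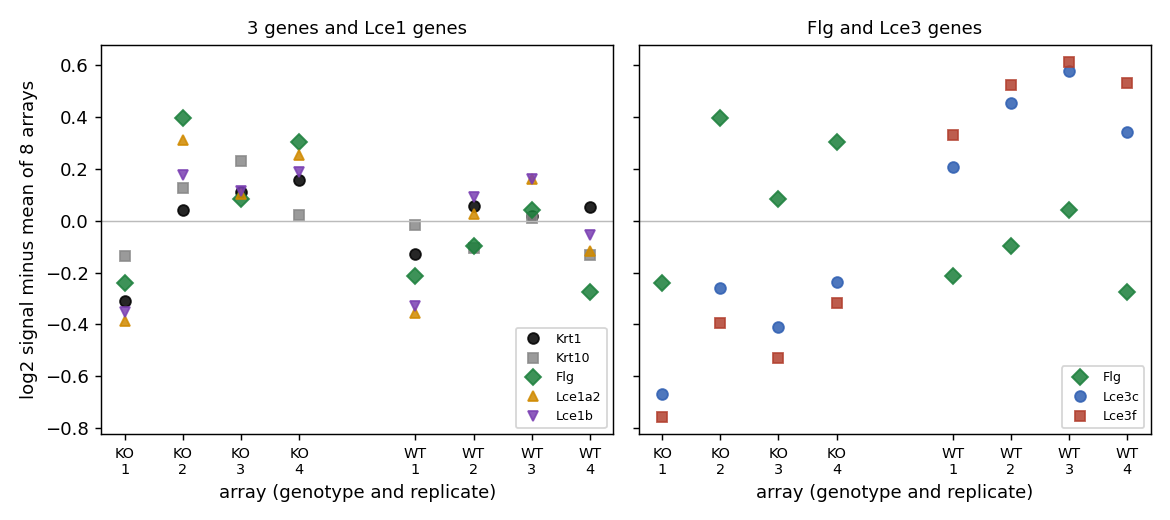
Log2 signal minus the gene's mean over 8 arrays (vertical axis) in each array (horizontal axis, KO RAS left and WT RAS right) for Krt1, Krt10, Flg and 2 Lce1 genes (left panel) and for Flg and 2 Lce3 genes (right panel). Array 1 is low in both genotypes for Lce1a2 at log2 signals of 7.42 and 7.45, and the Lce3 genes lie lower in all KO RAS arrays while Flg does not.

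Genes listed as regulators of epidermal differentiation were mostly lower in KO RAS cells. Of 38 listed regulators of epidermal differentiation 11 were measured. Limma called 6 of these 11 lower, none higher and left 5 uncalled, a share of 54.5% called where 8.9% of all genes were. Their median difference was -0.29, where the median of all genes was -0.012. Prdm1, the gene of the repressor Blimp1 in the granular layer, fell by 0.68 ± 0.07 (SE), the grainyhead-like genes Grhl1 and Grhl3 by 0.50 ± 0.06 and 0.45 ± 0.05, and Cebpa, the gene of C/EBP alpha, by 0.43 ± 0.06. The homeobox gene Barx2 fell by 0.33 and Zfp750, a zinc finger gene downstream of p63, by 0.29. Gata3, Elf3 and Tpra1 had differences of -0.25, -0.17 and 0.14 (limma adjusted p = 0.0754, 0.0521 and 0.272). Barx2 lost its call without KO RAS replicate 4 or WT RAS replicate 3 or 4, and Zfp750 without WT RAS replicate 2, while Prdm1, Grhl1, Grhl3 and Cebpa kept theirs in every setting run.

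Since genes of factors of the grainyhead-like and C/EBP families were among those called, the 250 bases before the annotated start of both genes are shown, 5′ to 3′ on the strand of the gene, from RefSeq on build GRCm38.p6. A promoter sequence was found for 2 of the 3 genes. The window of Krt10 is chr11:99389365-99389614 on the minus strand and that of Flg is chr3:93273296-93273545 on the plus strand. Capitals mark matches to 5 motifs searched on both strands: TATAAA for the TATA box, TGANTCA for AP-1, TTGCNNAA for C/EBP, AACNNGTT for grainyhead-like factors, and GGGA followed after any 2 bases by TTCC for NF-kB. No match overlapped another.
Krt10: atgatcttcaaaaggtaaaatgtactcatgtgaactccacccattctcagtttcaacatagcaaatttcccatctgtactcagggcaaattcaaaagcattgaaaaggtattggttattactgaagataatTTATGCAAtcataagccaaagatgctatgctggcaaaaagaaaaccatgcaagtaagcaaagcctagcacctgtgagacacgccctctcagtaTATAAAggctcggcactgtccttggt
Flg: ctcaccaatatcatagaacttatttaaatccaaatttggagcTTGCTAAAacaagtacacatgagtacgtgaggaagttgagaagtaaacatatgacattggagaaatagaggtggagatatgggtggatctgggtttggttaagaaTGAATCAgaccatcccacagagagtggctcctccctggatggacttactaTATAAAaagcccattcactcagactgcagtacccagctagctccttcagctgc

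Both windows held a match to the TATA box letters, 26 to 21 bases before the start in Krt10 and 53 to 48 bases before it in Flg. Such a match was held by 12.4% of 32851 promoter windows of this length. Both held 1 match to the C/EBP letters, at 119 to 112 bases in Krt10 (on the other strand) and 208 to 201 bases in Flg, as did 9.56% of windows. Flg held 1 AP-1 match at 103 to 97 bases and Krt10 none, where 6.75% of windows had one. The grainyhead-like and NF-kB letters, held by 3.64% and 1.21% of windows, were in neither. A match of letters is a description of these windows and does not show that a factor binds there.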

How the data were processed

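RNA of 8 samples was measured on one-colour arrays, biotin labelled per the labels. The authors deposited a processed table of 11373 probe sets by 8 arrays, whose values of 1.57 to 13.9 were read as log2 signals summarised per probe set before deposit. How they were normalized is not given in the sources used here. Probe sets were named by the platform annotation: 9374 had 1 symbol, 479 several and 1520 none. A gene was represented by its probe set of 1 symbol with the highest mean, which gave 9294 genes, of which 9201 matched a gene table of GRCm38.p6 used for gene order.

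Genotypes were compared in limma 3.58.1 (lmFit, eBayes; R 4.3.3) without covariates, and p-values were adjusted over all genes (Benjamini-Hochberg, threshold 0.05). The limma p-values set a difference against the spread between the 4 samples within each genotype, pooled over both and moderated over all genes. Within-array differences were compared by exact permutation tests. The fit was tested on simulated data, where it called 40% of 1.2-fold and 93.8% of 1.5-fold changes in the right direction. An uncalled gene may therefore still differ by a small fold. Precision is set by the 4 arrays of each genotype: the median standard error of a difference was 0.0693. Those of Krt1, Krt10 and Flg were larger, at 0.0958, 0.0773 and 0.125. The simulated shares cover randomly chosen genes and may be too high for these genes. The difference between arrays of 1 genotype had an SD of 0.157 to 0.175 over probe sets, so none was a duplicate. Same-numbered samples of the 2 genotypes were not treated as pairs in the main fit.

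The genes, lists and tests were chosen with earlier results of these data known. Genes named are the 3 genes, the 4 comparators, all measured keratins, up to 6 called members with the largest change and 3 uncalled members with the highest mean of each of 5 lists, and the 4 genes most like and 2 most opposite each gene. Cldn4, Crct1, Lce1m, Lce3b, Lce3f and S100a10 were chosen after their values were seen. Alternatives were another normalization or centring, a filter on low signals, other uses of probe sets, other variance models, array weights, the replicate block and leaving out each array.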

Additional observations from a re-analysis of the deposited data

Results flagged for a closer look

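Of 186 groups of 4 arrays tested among the 93 named genes, 12 held 1 array that stood apart from the other three by Dixon's ratio, where chance gives about 1 in 20. KO RAS replicate 1 stood low for 5 genes. Krtdap lay at 11.73 (nearest 12.13) and Zfp750 at 7.77 (nearest 7.90). Lce1b lay at 6.92 (nearest 7.38), Rdh9 at 5.17 (nearest 5.77) and Anxa9 at 7.88 (nearest 8.12). Lce1b, Rdh9 and Anxa9 had been named for their likeness to Krt1, Krt10 or Flg over the same arrays. Krt1, Krt10 and Flg did not pass this rule in either genotype. WT RAS replicate 3 stood apart for Krt20 at 3.29, Krt34 at 3.94 and Tchhl1 at 5.60, and KO RAS replicate 3 for Krt34 at 4.23. The remaining 3 were KO RAS replicate 4 for Krt33a at 3.67, WT RAS replicate 1 for Klk8 at 11.52 and WT RAS replicate 4 for A630072M18Rik at 4.68.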

How the results depend on the processing

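Krt10 and Flg kept a positive difference in all alternatives, at 0.10 to 0.15 and 0.26 to 0.30 over settings with all arrays, and Krt1 lay at -0.017 with quantile normalization repeated and at -0.000744 with array weights. Leaving out 1 array gave -0.051 to 0.10 for Krt1, 0.066 to 0.19 for Krt10 and 0.18 to 0.40 for Flg. None of the 3 was called under any alternative except Flg without KO RAS replicate 1. The spinous layer list had 2 to 5 called genes and the profilaggrin processing list 3 to 6 when 1 array was left out, and 11 of the processing list were called with trend and robust estimation. The cornified envelope list had 15 to 21. For the within-array pairs, 7 passed in the reported setting, with centring and with mean probe sets, and 8 with quantile normalization. With the replicate block, the differences of Krt1, Krt10 and Flg were the same and their limma adjusted p were 0.995, 0.408 and 0.213, and 659 genes were called in all. Same-numbered samples correlated at 0.085, -0.0013, 0.031 and -0.049 in their deviations from genotype means. Samples with different numbers correlated at -0.10 to 0.11. Correlations over all genes cannot exclude a pairing, and array 1 was low across differentiation genes in both genotypes. Whether the numbers pair the samples was thus not settled. A block over the pairs of within-array differences was not run as a test, since 4 paired differences cannot give an exact p below 0.125.

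Uncalled genes changed sign near 0: Krt24 at 0.0058 and 0.0080 and Krt28 at 0.0027 and 0.0097 under quantile normalization and centring, Tchhl1 at 0.011 with centring and 0.00554 with array weights, and Krt26 at -0.014 and Krt31 at -0.027 with array weights. Leaving out 1 array gave -0.064 to 0.046 for Krt24, -0.052 to 0.025 for Krt28, -0.093 to 0.10 for Tchhl1, -0.038 to 0.049 for Krt26, -0.042 to 0.086 for Krt31, -0.028 to 0.057 for Krt33a, -0.072 to 0.064 for Krt33b, -0.041 to 0.086 for Krt76, -0.040 to 0.12 for Krt86, -0.034 to 0.19 for Lce1b and -0.24 to 0.019 for Lce1d. Over all named genes and alternatives, 76 calls were lost and 15 gained, among them the calls of Krt36 and Krt80 in 11 alternatives each. Settings with 1 array fewer called 598 to 687 genes in all, against 827. The cause of the other changes was not tested.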
